A study of Macaca mulatta with 6 samples.

Results

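Interferon-stimulated genes were followed in tracheal tissue of rhesus monkeys as a set of 37 genes named by symbol. All 37 had a row among the 28536 genes of the count table, and all 37 passed the filter on low counts that left 18676 genes for testing. Each gene was compared between 3 libraries of animals intubated under general anaesthesia, whose tracheal lubricant carried a coat of Oxy@Lipo/Gel, and 3 libraries of a control group that received normal saline. Intubation is named for the Oxy@Lipo/Gel group, and no label states it or denies it for the controls, so lubricant and intubation cannot be told apart. The sources used here do not give genotype, sex or age of the animals, what Oxy@Lipo/Gel is made of, or how long after treatment tissue was taken. The tissue entry of all 6 libraries speaks of a catheter with lubricant, while other label text speaks of the trachea. Replicates are called biosamples, and no label ties each to its own animal. The p-values therefore rest on the spread among these libraries, which may be technical in part.

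Interferons are secreted proteins that cells release when they sense viral nucleic acid or other danger. Type I and type III interferons bind their receptors and activate the kinases JAK1 and TYK2, and the ISGF3 complex, which includes STAT2 and IRF9, then switches on interferon-stimulated genes. Their products sense foreign RNA, block viral entry, translation and replication, tag proteins with the ubiquitin-like ISG15, and tune the pathway itself. In the airway, epithelium, endothelium and resident immune cells can all express such genes.

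None of the 37 genes passed the test between groups. With edgeR's quasi-likelihood test and Benjamini-Hochberg adjustment over all genes at 0.05, 0 members were called higher and 0 lower, while 1.54% of all tested genes were called (0.851% higher and 0.685% lower). The median log2 fold change of the members (Oxy@Lipo/Gel over control) was -0.27, and that of all tested genes was -0.04. Single values ran from -1.22 for HERC5 to 0.79 for XAF1, with 25 members, 67.6%, below 0 and 12 above, while 53.0% of all tested genes lay below 0. At an unadjusted p under 0.05, edgeR gave 8 members lower and 2 higher, 27.0% of the list, against 23.3% of all tested genes (12.6% lower and 10.7% higher). DESeq2 called 5 members, OAS3, IRF7 and DHX58 lower and HERC6 and XAF1 higher, which is 13.5% of the list against 11.8% of all genes with an adjusted p in DESeq2 (5.05% lower and 6.72% higher). For 12 members the highest Oxy@Lipo/Gel library was under the lowest control library, and for 2 members the lowest Oxy@Lipo/Gel library was over the highest control library. With median-of-ratios size factors 11 members lay wholly lower, and with library totals 13, each with 2 wholly higher. Among all tested genes 17.7% had groups that did not overlap and were lower, and 12.2% had such groups and were higher. These shares were 15.2% and 14% with median-of-ratios size factors, and 16.1% and 11.8% with library totals. In bulk tissue, fewer cells of a type and less RNA per cell cannot be told apart.

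The intervals around these values limit what the comparison can show. The 95% interval of the log2 fold change lay wholly between -1 and 1 for 20 of the 37 members, and it excluded 0 for 10 before any adjustment. A p that misses the threshold does not show that a gene was equal in both groups.

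**Figure D1:**
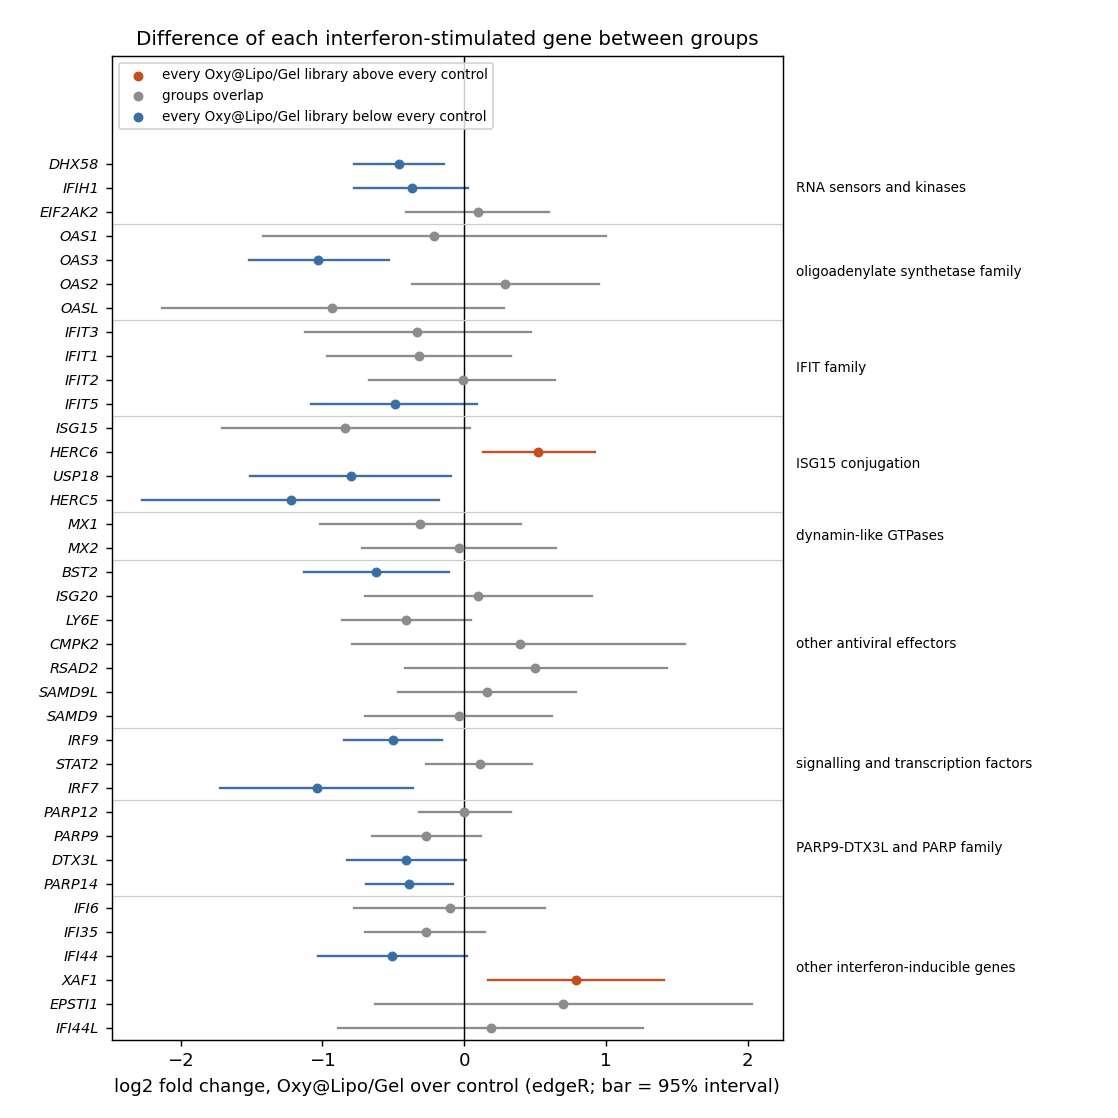
Log2 fold change (Oxy@Lipo/Gel over control) with its 95% interval from edgeR for each of the 37 genes, grouped by role; the x axis is in log2 units. Colours mark the 12 genes whose Oxy@Lipo/Gel libraries all lay below the control libraries and the 2 whose libraries all lay above; the points run from -1.22 for HERC5 to 0.79 for XAF1.

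Some facts of the libraries bear on these genes. Library totals ran from 20089109 to 23405294 counts in the Oxy@Lipo/Gel group and from 17097177 to 22194965 in the control group, and a count of 3 corresponds to 0.125 to 0.204 CPM (counts scaled to a common library size, here after TMM scaling). Airway markers were present in every library: the 7 tested multiciliated genes, FOXJ1 among them, summed to 2040 to 4430 CPM in Oxy@Lipo/Gel libraries and to 867 to 4810 CPM in control libraries. Control replicate 2 stood apart, with 7 of 7 multiciliated and 6 of 6 secretory markers at their lowest and 5 of 6 basal-cell markers at their highest. Oxy@Lipo/Gel replicate 1 had 6 of 7 endothelial markers at their lowest. The 7 B-cell markers summed to 22.6 to 66.3 CPM in Oxy@Lipo/Gel libraries and to 3.62 to 4.14 CPM in control libraries. Of these 7, edgeR called 6 higher, against 0.851% of all tested genes. DESeq2 called 7 higher, against 6.72% of all genes with an adjusted p. Smooth muscle markers summed to 1860, 14500 and 19700 CPM in Oxy@Lipo/Gel libraries, against 2580, 1290 and 893 CPM in control libraries, so Oxy@Lipo/Gel replicate 1 lay among the controls. All 7 of these markers had a log2 fold change above 0, from 2.52 to 3.41. EdgeR called 0 of them and DESeq2 called 7 higher, and only 1, MYOCD, did not overlap between groups. Cartilage markers summed to 403, 352 and 200 CPM in Oxy@Lipo/Gel libraries, against 47.2, 66.3 and 85.7 CPM in control libraries. All 6 had a log2 fold change above 0, and edgeR called 2 of them higher and DESeq2 4. The part of these cell types in the results below was not tested. The median log2 fold change of the interferon-stimulated genes was -0.23 without control replicate 2, -0.22 without Oxy@Lipo/Gel replicate 1 and -0.37 without Oxy@Lipo/Gel replicate 3.

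Levels between genes were set side by side on the deposited FPKM scale, which divides by gene length. The highest mean over all 6 libraries was that of BST2 at 42.9 FPKM, followed by ISG20 at 35.7, LY6E at 28.7, IFI6 at 25.5, IFI35 at 24.2, IRF9 at 21.1 and STAT2 at 17.1 FPKM. The ranges of BST2, ISG20, LY6E and IFI6 over the 6 libraries overlapped. Those of IFI35, IRF9 and STAT2 each overlapped with the ranges of ISG20 and IFI6, so the order of these genes is not firm. At the low end stood SAMD9 at 0.289, IFI44L at 0.390, OASL at 0.566 and HERC5 at 0.623 FPKM. EPSTI1 is listed at 0.655 FPKM, with 10.6 to 69.6 CPM and a length of 66941 bases behind its FPKM. For the other 36 genes this length runs from 728 bases for ISG15 to 9124 for MX2, so EPSTI1 was left out of the order of levels.

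**Figure D2:**
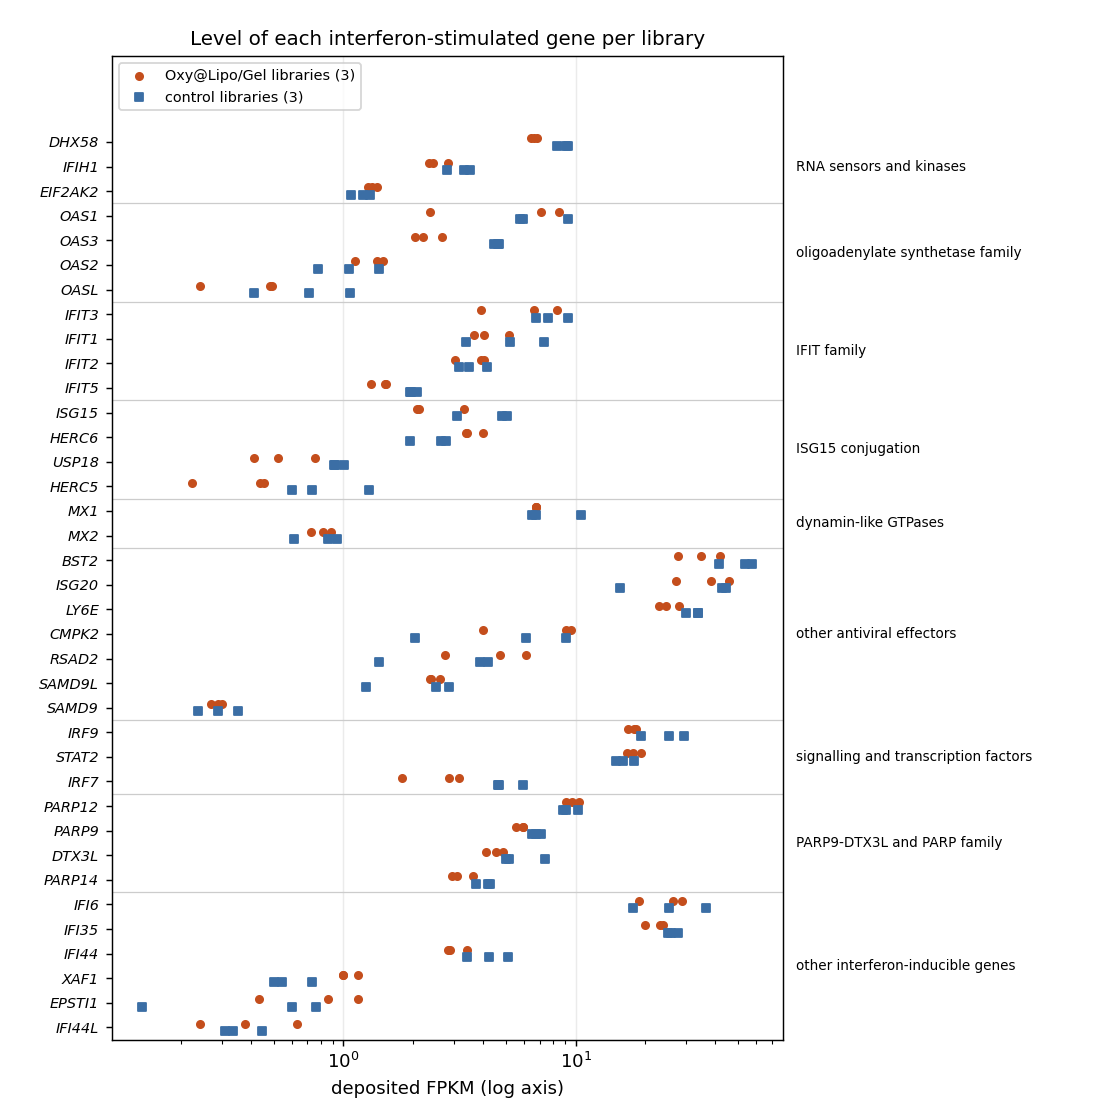
Deposited FPKM of each of the 37 genes in each library on a log axis, with Oxy@Lipo/Gel libraries as circles and control libraries as squares, grouped by role. BST2, ISG20, LY6E and IFI6 lie at the high end and SAMD9, IFI44L, OASL and HERC5 at the low end; the FPKM of EPSTI1 rests on a length of 66941 bases.

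The cytosolic sensors of viral RNA were represented by IFIH1 and DHX58. DHX58, which encodes LGP2, a helicase that modulates signalling by RIG-I and MDA5, had 21.3, 22.4 and 23.6 CPM in Oxy@Lipo/Gel libraries, against 30.7, 33.0 and 29.0 CPM in control libraries. The groups did not overlap, and the log2 fold change was -0.46 ± 0.13 (SE; edgeR adjusted p = 0.125, DESeq2 adjusted p = 0.0415). IFIH1, which encodes the sensor MDA5, had 8.18 to 9.33 CPM in Oxy@Lipo/Gel libraries and 11.3 to 11.6 CPM in control libraries, without overlap, although its groups overlapped with library totals as scaling. EIF2AK2, the kinase PKR that halts translation when it binds viral RNA, had 11 to 12.7 CPM in Oxy@Lipo/Gel libraries and 8.90 to 13.4 CPM in control libraries, so its groups overlapped.

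The oligoadenylate synthetases make a second messenger that activates RNase L, which degrades RNA. OAS3, the synthetase most active on long RNA duplexes, had 13.3, 13.4 and 19.1 CPM in Oxy@Lipo/Gel libraries, against 28.6, 36.1 and 28.6 CPM in control libraries. Its highest Oxy@Lipo/Gel library lay well under its lowest control library. It averaged 15.3 ± 3.32 CPM in the Oxy@Lipo/Gel group and 31.1 ± 4.35 CPM in the control group (SD, n = 3 each). The log2 fold change was -1.03 ± 0.21 (SE, 95% interval -1.52 to -0.53), and the edgeR adjusted p of 0.0689 was the smallest of the list. In DESeq2 the adjusted p of OAS3 was 0.00247. The groups of the other 3 members of the family overlapped. OAS1 had 3.57, 11.7 and 15.2 CPM in Oxy@Lipo/Gel libraries, against 9.23, 11.4 and 14.5 CPM in control libraries. Its low value in Oxy@Lipo/Gel replicate 1 was the lowest of all 6 libraries, while the other libraries of both groups overlapped, and without that library its log2 fold change was 0.20 instead of -0.21. OAS2 had 4.73 to 7.02 CPM in Oxy@Lipo/Gel libraries and 4.21 to 6.18 CPM in control libraries. OASL, a relative without synthetase activity, had 0.830, 0.885 and 0.483 CPM in Oxy@Lipo/Gel libraries, against 0.740, 2.31 and 1.24 CPM in control libraries (log2 fold change -0.93, 95% interval -2.13 to 0.28). Counts of family members with similar sequence can be split unevenly between them, here and in the IFIT and MX families.

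The IFIT proteins bind viral RNA ends or translation initiation factors. IFIT3, a scaffold for IFIT1, had 7.47, 13.7 and 18.8 CPM in Oxy@Lipo/Gel libraries, against 15.4, 16.4 and 18.1 CPM in control libraries. The lowest value was again that of Oxy@Lipo/Gel replicate 1, and the groups overlapped. IFIT5, which binds RNA with 5′ phosphates, had 2.91 to 3.70 CPM in Oxy@Lipo/Gel libraries and 4.22 to 5.09 CPM in control libraries, without overlap (edgeR adjusted p = 0.275). IFIT1 and IFIT2 overlapped, with log2 fold changes of -0.32 and -0.01, and the sign of the value for IFIT2 depended on the scaling.

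Genes of ISG15 conjugation had values on both sides of 0. ISG15, the ubiquitin-like modifier, had 1.37, 2.36 and 1.66 CPM in Oxy@Lipo/Gel libraries, against 2.18, 4.07 and 3.42 CPM in control libraries. Oxy@Lipo/Gel replicate 2 lay above control replicate 1, so the groups overlapped (log2 fold change -0.84, edgeR adjusted p = 0.227). USP18, the protease that removes ISG15 and damps the interferon receptor, had 2.49, 1.48 and 2.04 CPM in Oxy@Lipo/Gel libraries, against 3.52, 3.87 and 3.09 CPM in control libraries. HERC5, the main human ligase for ISG15, had 0.706, 1.52 and 1.72 CPM in Oxy@Lipo/Gel libraries, against 2.48, 2.44 and 4.23 CPM in control libraries. Neither USP18 nor HERC5 overlapped between groups, and their log2 fold changes were -0.80 ± 0.30 and -1.22 ± 0.44 (SE; edgeR adjusted p = 0.180 and 0.169). HERC6, the main ISG15 ligase of the mouse, had 14.1, 13.0 and 14.1 CPM in Oxy@Lipo/Gel libraries, against 9.92, 8.76 and 9.99 CPM in control libraries. The groups of HERC6 did not overlap, with Oxy@Lipo/Gel above (log2 fold change 0.52 ± 0.17, edgeR adjusted p = 0.142, DESeq2 adjusted p = 0.0251).

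HERC5 and HERC6 are neighbours on the chromosome, as are 8 further pairs of members. The order of genes was taken from the RefSeq table of the assembly T2T-MMU8v2.0, in which 36 of the 37 symbols were found, counting adjacent protein-coding genes. The log2 ratio of HERC6 to HERC5 was 3.60, 2.75 and 2.72 in Oxy@Lipo/Gel libraries, against 1.81, 1.65 and 1.15 in control libraries (CPM + 0.5). It averaged 3.02 ± 0.50 in the Oxy@Lipo/Gel group and 1.54 ± 0.34 in the control group (SD, n = 3 each). Since HERC6 lay wholly higher and HERC5 wholly lower, this ratio restates both single results and had to separate the groups. In the other 8 pairs the differences between group means ran from -0.55 for IFI44 to IFI44L to 0.63 for OAS1 to OAS3. RSAD2 and CMPK2, which lie side by side, had log2 fold changes of 0.50 and 0.39, and their log2 ratio differed by 0.05.

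Among the antiviral effectors, BST2 or tetherin, which holds budding virions at the cell surface, had 38.1, 34.3 and 30 CPM in Oxy@Lipo/Gel libraries, against 55.8, 62.7 and 38.7 CPM in control libraries. The groups came within 1 CPM of each other and overlapped with other scalings (log2 fold change -0.62 ± 0.21, edgeR adjusted p = 0.159). LY6E, a surface protein that restricts entry of coronaviruses, had 45.7, 46.5 and 61.4 CPM in Oxy@Lipo/Gel libraries, against 59.1, 80.2 and 64.6 CPM in control libraries. Its highest Oxy@Lipo/Gel library lay between the control libraries, but the groups of LY6E did not overlap with library totals as scaling. ISG20, an RNA exonuclease, had 50.8, 46.2 and 35.9 CPM in Oxy@Lipo/Gel libraries, against 50.8, 22.1 and 50.9 CPM in control libraries. MX1, a dynamin-like GTPase that traps viral nucleocapsids, had 18.1, 19.6 and 21.6 CPM in Oxy@Lipo/Gel libraries, against 19.4, 36.4 and 17.8 CPM in control libraries. For ISG20 and MX1 control replicate 2 was the outlying library, low in ISG20 and high in MX1, and without it the log2 fold changes were -0.20 and 0.08, against 0.10 and -0.31 with it. MX2, RSAD2, CMPK2, SAMD9 and SAMD9L overlapped between groups, with log2 fold changes from -0.04 for MX2 and SAMD9 to 0.50 for RSAD2. The sign was not stable for MX2 and SAMD9L, nor for SAMD9.

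IRF7 and IRF9, both transcription factors of the interferon system, had values without overlap between groups. IRF7, the factor that amplifies interferon production, had 5.89, 5.77 and 3.97 CPM in Oxy@Lipo/Gel libraries, against 9.31, 14.1 and 8.85 CPM in control libraries. The log2 fold change was -1.04 ± 0.29 (SE; edgeR adjusted p = 0.116, DESeq2 adjusted p = 0.0183). IRF9, the DNA-binding subunit of ISGF3, had 33.1, 35.3 and 36.6 CPM in Oxy@Lipo/Gel libraries, against 56.8, 44.6 and 47.3 CPM in control libraries (log2 fold change -0.50 ± 0.14, edgeR adjusted p = 0.126). STAT2, its partner, had 87.2, 89.4 and 112 CPM in Oxy@Lipo/Gel libraries, against 83.9, 93.6 and 90.6 CPM in control libraries, with a log2 fold change of 0.11 (95% interval -0.27 to 0.48).

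The poly-ADP-ribose polymerase relatives had log2 fold changes from -0.41 to 0.00, DTX3L included. PARP12, which acts on viral translation, had 28.4, 29.0 and 29.9 CPM in Oxy@Lipo/Gel libraries, against 30.1, 31.1 and 25.7 CPM in control libraries, the narrowest span of the list at 1.21-fold from lowest to highest library. PARP14 had 23.4 to 25.2 CPM in Oxy@Lipo/Gel libraries and 30.1 to 33.4 CPM in control libraries, and DTX3L, the ubiquitin ligase partner of PARP9, had 25.2 to 25.5 CPM in Oxy@Lipo/Gel libraries and 27.4 to 40.7 CPM in control libraries. Both had groups that did not overlap (edgeR adjusted p = 0.149 for PARP14 and 0.218 for DTX3L), while PARP9 overlapped (log2 fold change -0.27), except with library totals as scaling.

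Of the 6 remaining members, XAF1, a pro-apoptotic partner of XIAP, had 3.45, 3.20 and 3.54 CPM in Oxy@Lipo/Gel libraries, against 2.31, 1.90 and 1.66 CPM in control libraries. Its groups did not overlap (log2 fold change 0.79 ± 0.26, edgeR adjusted p = 0.150, DESeq2 adjusted p = 0.0419). EPSTI1 had 69.6, 56.9 and 31.0 CPM in Oxy@Lipo/Gel libraries, against 38.7, 10.6 and 47.3 CPM in control libraries. It spanned 6.57-fold from control replicate 2 to Oxy@Lipo/Gel replicate 1, the widest span of the list, and its groups overlapped (log2 fold change 0.70, 95% interval -0.63 to 2.03). IFI6, a protein of mitochondria and endoplasmic reticulum, had 32.1, 49.3 and 58.6 CPM in Oxy@Lipo/Gel libraries, against 46.3, 39.0 and 64.6 CPM in control libraries. IFI35 had 28.4, 26 and 32.7 CPM in Oxy@Lipo/Gel libraries, against 32.6, 42.0 and 30.7 CPM in control libraries. Both overlapped, IFI35 except with library totals as scaling. IFI44 did not overlap, with 6.39 to 9.17 CPM in Oxy@Lipo/Gel libraries and 9.91 to 12.0 CPM in control libraries, and IFI44L did, with 1.37 to 4.24 CPM in Oxy@Lipo/Gel libraries and 1.87 to 2.62 CPM in control libraries.

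**Figure D3:**
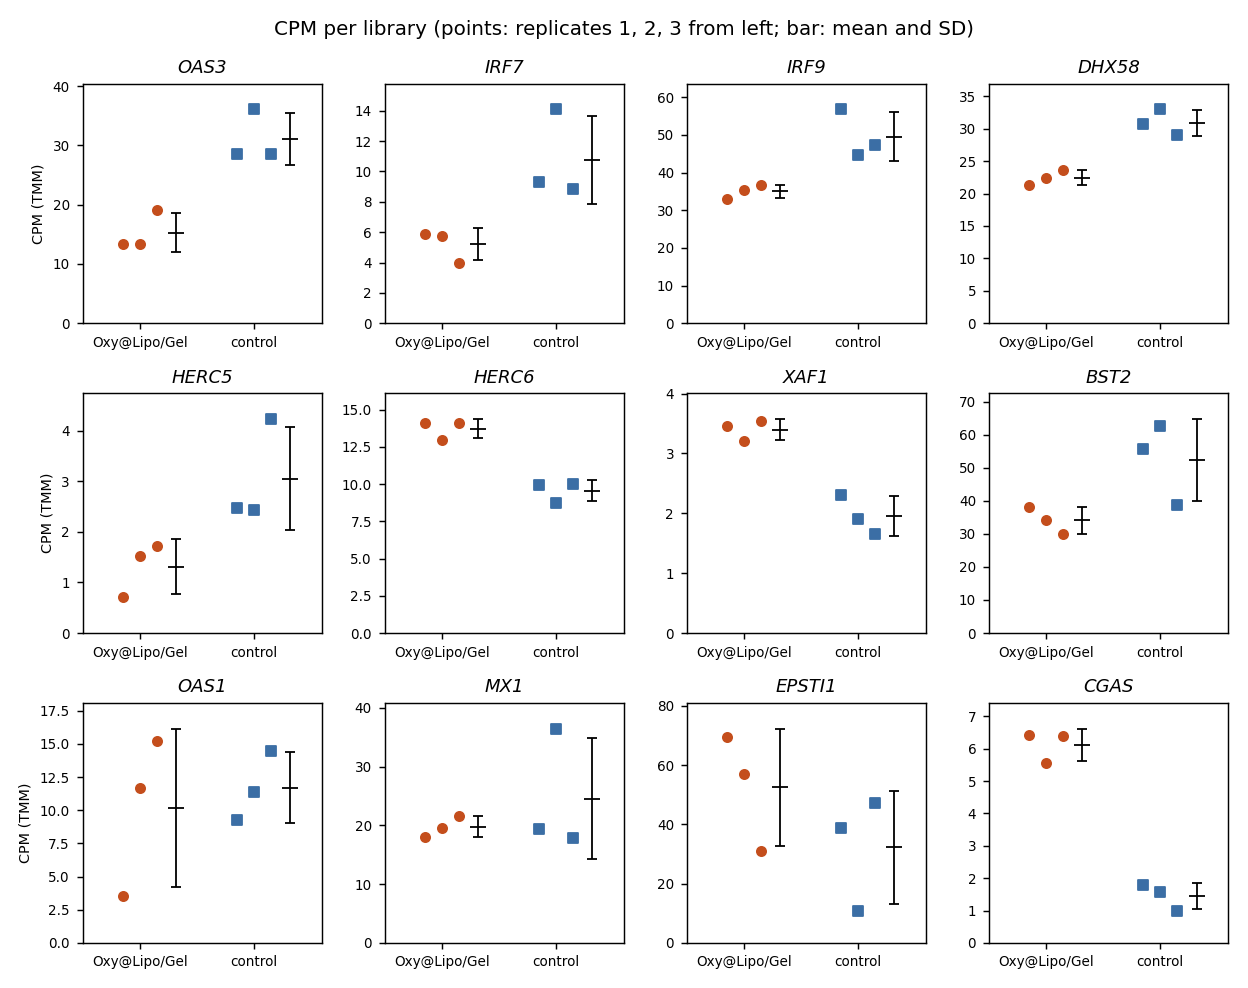
CPM of 11 interferon-stimulated genes and of the sensor gene CGAS in each library, from 0, with the mean and SD of each group (n = 3 each). OAS3, IRF7, IRF9, DHX58, HERC5 and BST2 lie lower and HERC6, XAF1 and CGAS higher in all Oxy@Lipo/Gel libraries, while the groups of OAS1, MX1 and EPSTI1 overlap.

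The extreme library differed between members. Control replicate 2 was the highest of the 6 libraries for 17 members, 45.9%, among them MX1, OAS3, OASL, ISG15, IRF7, BST2 and LY6E, and the lowest for 7, 18.9%, namely EPSTI1, CMPK2, RSAD2, ISG20, SAMD9L, OAS2 and HERC6. Of all tested genes, 32.4% were highest and 26.4% lowest in that library. The 7 multiciliated markers, none of them at 0, summed to 4430, 3940 and 2040 CPM in Oxy@Lipo/Gel libraries, against 3920, 867 and 4810 CPM in control libraries. The 6 basal-cell markers summed to 3520, 1550 and 2700 CPM in Oxy@Lipo/Gel libraries, against 6330, 11200 and 2060 CPM in control libraries.

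Oxy@Lipo/Gel replicate 1 was the lowest library for 16 members, 43.2%, and for 20.2% of all tested genes. Among the 16 were OAS1, IFIT1, IFIT2, IFIT3, IFI6, IFI44, IFI44L and ISG15. The 7 endothelial markers, PECAM1 and VWF among them and none at 0, summed to 149, 418 and 489 CPM in Oxy@Lipo/Gel libraries, against 252, 251 and 539 CPM in control libraries. The part of ciliated, basal and endothelial cells in the levels of these genes was not tested. Of the markers of plasmacytoid dendritic cells, known as a rich source of type I interferon, 6 of 8 had a row and 4 were tested. These 4 (IL3RA, TCF4, GZMB and IRF8, all of which other cells also express) summed to 60.1, 69.9 and 63.3 CPM in Oxy@Lipo/Gel libraries, against 72.2, 103 and 68.9 CPM in control libraries, and 0 of them passed in edgeR. Most of each sum was TCF4, with 43, 47.3 and 51.7 CPM in Oxy@Lipo/Gel libraries, against 60.8, 94.7 and 52.9 CPM in control libraries. The log2 fold change was below 0 for 1 of the 4, TCF4, and above 0 for 3, with a median of 0.14. Of the untested markers, CLEC4C had 1 count over the Oxy@Lipo/Gel group and 0 over the control group, and PTCRA had 10 over the Oxy@Lipo/Gel group and 2 over the control group.

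**Figure D4:**
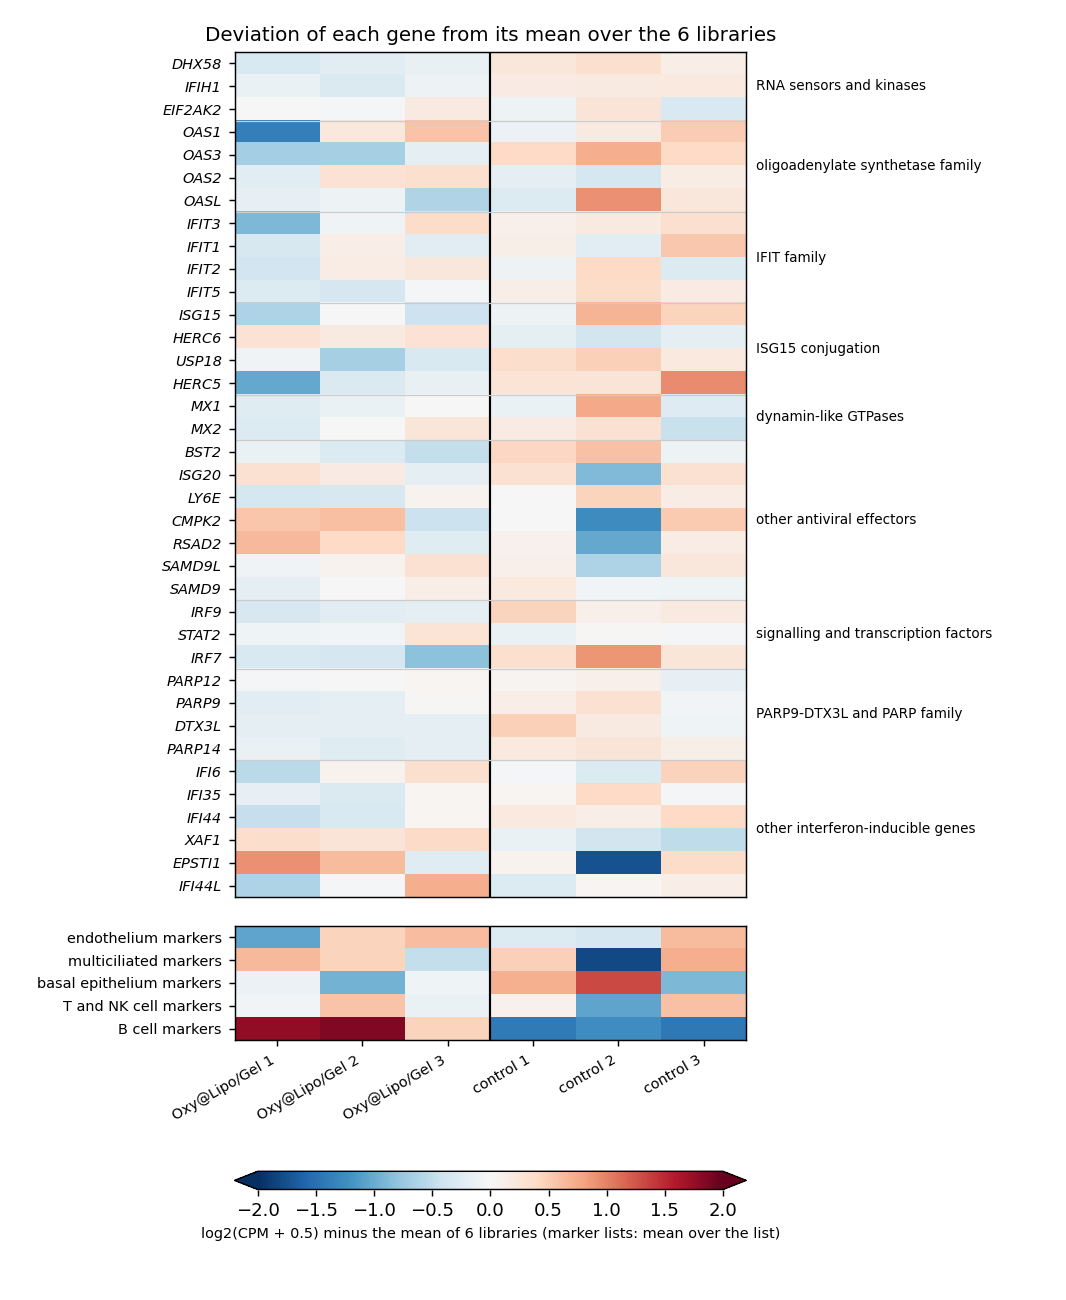
Deviation of log2(CPM + 0.5) from the mean of the 6 libraries for each of the 37 genes (upper panel) and, as a mean over each list, for markers of 5 cell types (lower panel); red is above and blue below the mean. EPSTI1, CMPK2, RSAD2 and ISG20 are low in control replicate 2, and OAS1, IFIT3 and IFI6 are low in Oxy@Lipo/Gel replicate 1; multiciliated markers are low in control replicate 2 and endothelial markers in Oxy@Lipo/Gel replicate 1.

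Genes upstream of the set were described from lists of ligands, receptors, kinases and sensors. The calls per list given from here on stand beside 1.54% of all tested genes called in edgeR. In DESeq2, 11.8% of all genes with an adjusted p were called (5.05% lower and 6.72% higher). In CPM, groups did not overlap for 17.7% of all tested genes lower and 12.2% higher. By list, lower and higher in turn, this held for 1 and 3 of 6 receptor genes. For JAK, STAT and IRF genes it held for 1 and 1 of 10, for negative regulators for 4 and 0 of 8. The sensors and adaptors had 1 and 5 of 12, interferon-gamma targets 3 and 1 of 16, further antiviral genes 5 and 2 of 41. Of 16 interferon genes listed, 6 had a row and 1 was tested; the other 10 were not analysed here. IFNB1 had 3 counts over the Oxy@Lipo/Gel group and 4 over the control group, IFNG had 0 over the Oxy@Lipo/Gel group and 1 over the control group, IFNL1 had 1 over each, IFNW1 had 2 over the Oxy@Lipo/Gel group and 0 over the control group, and IFNK had 0 over both. IFNE, an epithelial type I interferon, was the ligand with enough counts, with 3.24, 3.12 and 4.72 CPM in Oxy@Lipo/Gel libraries, against 5.79, 5.02 and 3.85 CPM in control libraries (log2 fold change -0.41, edgeR adjusted p = 0.444).

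Of 6 receptor genes, 0 passed in edgeR or DESeq2. The subunits of the interferon-gamma receptor differed in direction: IFNGR1 had 46.2, 49.4 and 48.2 CPM in Oxy@Lipo/Gel libraries, against 78.4, 83.1 and 55.1 CPM in control libraries, and IFNGR2 had 58.9, 52.4 and 41.5 CPM in Oxy@Lipo/Gel libraries, against 39.3, 28.7 and 40 CPM in control libraries. Neither overlapped between groups in CPM (edgeR adjusted p = 0.139 and 0.202). On the deposited FPKM scale, which uses library totals, IFNGR2 did overlap. It had 36.6, 29.9 and 21.7 FPKM in Oxy@Lipo/Gel libraries, against 23, 14 and 24.2 FPKM in control libraries. Of the type I receptor genes, IFNAR1 had 69.6, 73.4 and 61.4 CPM in Oxy@Lipo/Gel libraries, against 59.4, 52.6 and 57.9 CPM in control libraries. These did not overlap (log2 fold change 0.27, 95% interval -0.06 to 0.59). In FPKM they did, with 7.36, 7.14 and 5.47 in Oxy@Lipo/Gel libraries, against 5.9, 4.35 and 5.96 in control libraries. IFNAR2 had 9.51, 14.7 and 14.6 CPM in Oxy@Lipo/Gel libraries, against 7.49, 6.04 and 11.9 CPM in control libraries, with overlap (log2 fold change 0.60, 95% interval -0.16 to 1.37).

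Of 10 genes for JAK kinases, STAT and IRF factors, 0 passed in edgeR, and DESeq2 called IRF1 lower and STAT3 higher. JAK1 had 118, 136 and 122 CPM in Oxy@Lipo/Gel libraries, against 122, 130 and 106 CPM in control libraries, and TYK2 had 103, 95 and 88.1 CPM in Oxy@Lipo/Gel libraries, against 86.0, 90.2 and 87.6 CPM in control libraries. Both overlapped between groups, with log2 fold changes of 0.07 and 0.12. IRF1, a factor induced by interferon-gamma, had 32.9, 30.5 and 28.0 CPM in Oxy@Lipo/Gel libraries, against 50.3, 48.6 and 39.6 CPM in control libraries, without overlap (log2 fold change -0.60, edgeR adjusted p = 0.103, DESeq2 adjusted p = 0.0291). STAT3, a factor downstream of interleukin-6 and related cytokines, had 86.1, 96.9 and 93.7 CPM in Oxy@Lipo/Gel libraries, against 65.7, 76.8 and 54.7 CPM in control libraries, without overlap (log2 fold change 0.49, edgeR adjusted p = 0.158, DESeq2 adjusted p = 0.0469). IRF8, a factor of B cells and myeloid cells, had 7.39, 9.86 and 3.91 CPM in Oxy@Lipo/Gel libraries, against 1.61, 1.77 and 4.66 CPM in control libraries, with overlap (log2 fold change 1.39, edgeR adjusted p = 0.192).

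Of 8 genes listed as negative regulators 0 passed in edgeR and DESeq2 called 1, USP15, lower. USP15, a deubiquitinase whose effect on the pathway was not tested here, had 32, 29.0 and 32.4 CPM in Oxy@Lipo/Gel libraries, against 50.4, 50.5 and 48.7 CPM in control libraries (log2 fold change -0.68, edgeR adjusted p = 0.0550, DESeq2 adjusted p = 0.000498). IRF2BP1, a partner of IRF2, had 26.9, 31.7 and 31.4 CPM in Oxy@Lipo/Gel libraries, against 44.0, 43.5 and 35.2 CPM in control libraries. SOCS1, a feedback inhibitor of JAK kinases, had 2.74, 2.87 and 2.95 CPM in Oxy@Lipo/Gel libraries, against 3.87, 3.46 and 4.99 CPM in control libraries. Neither overlapped in CPM, and their log2 fold changes were -0.45 and -0.53. On the FPKM scale SOCS1 did overlap, with 2.41 FPKM in Oxy@Lipo/Gel replicate 1 and 2.38 FPKM in control replicate 2.

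Of 12 tested sensors and adaptors 1 rose and 0 fell in edgeR, and DESeq2 called 2 higher, CGAS and IKBKE. CGAS, the cytosolic DNA sensor that makes the messenger cGAMP for STING, had 6.43, 5.56 and 6.38 CPM in Oxy@Lipo/Gel libraries, against 1.78, 1.56 and 0.999 CPM in control libraries. The log2 fold change was 2.08 (95% interval 1.35 to 2.81, edgeR adjusted p = 0.0371, DESeq2 adjusted p = 9.21e-09). With single libraries left out the edgeR adjusted p was 0.0485 without Oxy@Lipo/Gel replicate 1 and from 0.063 to 0.180 without any other single library, with log2 fold changes from 1.86 to 2.26. B-cell markers were also high in these libraries, by the sums given above, and their part in the level of CGAS was not tested. RIGI, which encodes the RNA sensor RIG-I, had 7.68, 10.1 and 11.2 CPM in Oxy@Lipo/Gel libraries, against 7.83, 10.3 and 10.9 CPM in control libraries.

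Of 16 tested targets typical of interferon-gamma 0 passed in edgeR and DESeq2 called CIITA higher, with a median log2 fold change of -0.33 and 12 values below 0. CIITA, the master regulator of MHC class II genes, had 16.4, 21.9 and 20.7 CPM in Oxy@Lipo/Gel libraries, against 7.70, 8.28 and 13.2 CPM in control libraries (log2 fold change 1.01, edgeR adjusted p = 0.108, DESeq2 adjusted p = 0.0102). As for CGAS, the part of B cells in the level of CIITA was not tested. GBP1, a guanylate-binding protein, had 20.8, 20.9 and 21.2 CPM in Oxy@Lipo/Gel libraries, against 31.9, 30.1 and 26 CPM in control libraries. PSMB9, an immunoproteasome subunit, had 14, 15.7 and 17.7 CPM in Oxy@Lipo/Gel libraries, against 27.7, 19.1 and 21.1 CPM in control libraries. Neither overlapped in CPM, and their log2 fold changes were -0.48 and -0.52. On the FPKM scale PSMB9 had 7.05 in both Oxy@Lipo/Gel replicate 3 and control replicate 2, so its groups met. CXCL10, a chemokine for T cells, had 0.789, 0.548 and 0.912 CPM in Oxy@Lipo/Gel libraries, against 1.83, 0.679 and 0.904 CPM in control libraries.

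Of 41 further antiviral genes 0 passed in edgeR, and DESeq2 called 1 higher (ZNFX1) and 2 lower (IFITM1 and SLFN11), with a median log2 fold change of -0.01, 20 values above 0 and 21 below. IFITM1, a membrane protein that hinders viral fusion, had 104, 117 and 137 CPM in Oxy@Lipo/Gel libraries, against 178, 217 and 173 CPM in control libraries, without overlap (log2 fold change -0.67, edgeR adjusted p = 0.117, DESeq2 adjusted p = 0.0216). SP110, a nuclear body protein, had 17.4, 16.7 and 17.7 CPM in Oxy@Lipo/Gel libraries, against 23.3, 28.0 and 22.5 CPM in control libraries, without overlap (log2 fold change -0.51, edgeR adjusted p = 0.131). SLFN11, which blocks stressed replication forks, had 5.11, 3.96 and 3.49 CPM in Oxy@Lipo/Gel libraries, against 20.6, 4.41 and 20.5 CPM in control libraries, so control replicate 2 lay with the Oxy@Lipo/Gel libraries (edgeR adjusted p = 0.136, DESeq2 adjusted p = 0.0241). IFI27 had 10.2, 22.3 and 21.9 CPM in Oxy@Lipo/Gel libraries, against 17.8, 34.3 and 49.9 CPM in control libraries, and overlapped.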

How the data were processed

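Poly(A)-selected, strand-specific (dUTP) paired-end RNA libraries were sequenced, per the labels' protocols. Aligner, counter, annotation and use of strand in counting: not given in the sources used here, so overlapping genes on opposite strands may share reads. The submitters' processing notes name the builds GRCm38, rheMac8 and Mmul_8.0.1 without a role, so no coordinates are printed. The authors deposited raw counts for 28536 genes and, per the file headers, FPKM values. Wherever all libraries had at least 5 counts, in 17796 of 17796 genes, count over FPKM and library total gave 1 length (within 0.01 base), so the FPKM values are no independent measurement.

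The comparison used edgeR 4.0.16 under R 4.3.3, with TMM scaling, filterByExpr (count of at least 10, total of at least 15), quasi-likelihood F test, group as the only term, Benjamini-Hochberg adjustment at 0.05 over 18676 genes. The SE is the log2 fold change divided by the square root of F, and intervals are at 95%. Replicate libraries all differed beyond sampling noise (lowest chi-square over degrees of freedom 46.18). The count test was also run on simulated counts with the same dispersion for every gene. That setting is simpler than these libraries, so the run does not vouch for the results here. Alternatives were other size factors, other filters, DESeq2 1.42.0, limma 3.58.1 (voom for counts, and a trend fit of FPKM values on the log2 scale with pseudocounts of 1 or 0.1), a replicate block, and leaving out single libraries. Figures used Python 3.11.15 with matplotlib 3.10.9.

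The members and lists were chosen with earlier results of these data known. Values per library were given for the 8 members with the largest fold change, the 6 with the highest FPKM and the highest of each role, and for pathway genes that passed, or the 3 with the smallest p in each list, beside a set list (IRF1, IFNAR1, IFNAR2, JAK1, TYK2, RIGI, IFNB1, IFNG, CXCL10, IFI27); untested interferon genes have counts summed per group. A further gene of that list is not reported here. OAS3, IRF7, IRF9, HERC5, HERC6 and other members, and the genes IKBKE and ZNFX1, were described or named after their values were seen.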

Additional observations from a re-analysis of the deposited data

How the results depend on the processing

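The count of interferon-stimulated genes called was 0 in edgeR with every size factor, count filter and left-out library tried, with limma-voom and with limma on log2(FPKM + 1) and log2(FPKM + 0.1). DESeq2 called 5. The list's median log2 fold change of -0.27 stayed below 0 in every alternative, from -0.37 to -0.22 with 1 library left out. The count over all genes, 287, was 183 with library totals only and 2460 in DESeq2, and from 0 to 628 with 1 library left out; it was 0 when Oxy@Lipo/Gel replicate 2 was omitted, and also when control replicate 1 or 3 was (2271, 3189 and 4858 genes at an unadjusted p under 0.05). With the replicate number as a block edgeR called 0 genes (2866 at an unadjusted p under 0.05) and 0 members, with a list median of -0.27. Deviations of same-numbered libraries from their group means correlated at 0.23, -0.38 and -0.20, and those of differently numbered libraries at -0.32 to 0.39. As deviations were centred within groups of 3 libraries, these values cannot decide whether the numbers pair the samples.

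The cause of these changes was not tested. Of the 37 members 12 changed sign somewhere, none of them called. IFIT2 was 0.03 with median-of-ratios size factors, library totals, DESeq2 and log2(FPKM + 0.1), 0.01 with upper-quartile factors and limma-voom, and 0.02 with log2(FPKM + 1). MX2 was 0.01 with median-of-ratios factors, library totals, DESeq2 and log2(FPKM + 1), and 0.02 with log2(FPKM + 0.1). RIGI was between 0.00 and 0.04 in 8 alternatives: 0.04 with median-of-ratios factors and DESeq2, 0.03 with upper-quartile factors and log2(FPKM + 0.1), 0.02 with library totals and log2(FPKM + 1), and 0.00 with either filter. With 1 library left out, log2 fold changes ran for IFIT2 from -0.16 to 0.21, for IFI6 from -0.30 to 0.12, for ISG20 from -0.20 to 0.27, for MX2 from -0.25 to 0.12, for OAS1 from -0.62 to 0.20, for SAMD9 from -0.15 to 0.07, for RIGI from -0.14 to 0.14, for IFI44L from -0.32 to 0.50, for STAT2 from -0.02 to 0.23, for PARP12 from -0.08 to 0.08, for MX1 from -0.50 to 0.08, for SAMD9L from -0.06 to 0.32, for EIF2AK2 from -0.04 to 0.26 and for JAK1 from -0.02 to 0.14. With the replicate block the adjusted p of CGAS was 0.178.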
